A study of Mus musculus with 3 samples.

Results

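Resting CD8 T cells that carried transcripts of the inhibitory receptors Lag3 or Pdcd1 were described in CD45+ cells from KP1 tumors, across 3 single-cell RNA sequencing libraries. The cells were chosen by measured transcripts: at least 2 unique molecular identifiers (UMIs, counted transcripts) over Cd3d, Cd3e, Cd3g, Trac, Trbc1 and Trbc2, at least 1 of Cd8a or Cd8b1, none of Cd4, Foxp3 or Tcf7, at least 1 of Lag3 or Pdcd1, under 3 of Mki67 and Top2a, under 5 of Lyz2, C1qa, C1qb, S100a8 and S100a9, and under 2 of Klra1, Klra5, Klra6, Klra7 and Klrb1c. The rule took 4141 of the 71909 cells that passed a quality filter (200 or more genes, mitochondrial UMIs of 20% or less). These were 1213 of 22235 cells with mono-IL-10, 1129 of 22707 with IL-10/2-Trikine and 1799 of 26967 in the Combo library, and they are called members here.

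KP1 is a mouse small-cell lung cancer line with mutated Rb and p53, grown under the skin of wild-type B6129SF1/J mice. The mono-IL-10 group received an engineered monomeric IL-10 (Supermono-10), and the Trikine group received IL-10/2-Trikine, in which mono-IL-10 is fused to a binder of the IL-2 receptor β chain. Both were given at 3 µg per dose between day 7 and day 19, and the Combo group received IL-10/2-Trikine with 4 doses of 200 µg of an anti-PD-1 antibody (first on day 7, then day 11, day 15 and day 19). The protocol text could also be read as giving the antibody to every group, but the labels of single samples give it to the Combo group alone and were followed. There was no untreated library, each group was 1 library, and the number of mice in a library was not given in the sources used here, so no test between treatments was possible. Every interval below is a 95% interval for counting error alone, or for the spread among the genes of a list, and does not cover differences between mice.

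LAG-3 and PD-1 (encoded by Lag3 and Pdcd1) are inhibitory receptors that T cells put on their surface after their antigen receptor is engaged. When engagement persists, as in tumors, CD8 T cells can keep these receptors, lose the transcription factor TCF1 (encoded by Tcf7) and gain the factor TOX, a state known as exhaustion. Single transcripts of Lag3 or Pdcd1 do not mark that state, since recently activated effector cells carry them too.

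The label was checked with T cell markers outside the rule. All 9 of these markers were detected in members of each library, with a summed level of 2851 to 3452 CPM (UMIs of a gene scaled to a common total of UMIs summed over the cells of a library). In empty droplets they summed to 1292, 1885 and 1756 CPM with mono-IL-10, IL-10/2-Trikine and the combination, so members were at 267%, 151% and 177% of that level. Median depth was 4842 UMIs per member with mono-IL-10, 3994 with IL-10/2-Trikine and 3532 in the Combo library, so members were deepest in the first library. Macrophage markers summed to 71.3, 77.2 and 97.0 CPM in members, which was 3.42%, 10.4% and 5.91% of their level in empty droplets. Neutrophil markers summed to 23.6, 22.8 and 14.2 CPM, or 10.8%, 15.1% and 9.39% of empty droplets, with 2, 2 and 1 of the 7 markers at 0. B cell markers summed to 167, 1679 and 656 CPM, or 9.91%, 40.6% and 108% of empty droplets. NK cell markers summed to 5986, 14705 and 11068 CPM, of which Gzma, a gene that CD8 cells share, made up 5677, 14253 and 10728 CPM. Markers of CD4 and regulatory T cells outside the rule summed to 173, 238 and 227 CPM in members and to 86.4, 125 and 141 CPM in resting CD8 cells without the receptors, with 5 of 6 markers over 10 CPM in each library and none at 0. These sums were 63.7%, 69.0% and 48.8% of empty droplets. The part of these other cell types in the results, Areg and Il10 included, was not tested. At most 0.793% of the kept barcodes of a library also occurred in another library.

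Members made up 54.0% (51.9 to 56.0) of resting CD8 cells without Tcf7 transcripts with mono-IL-10, 55.7% (53.5 to 57.8) with IL-10/2-Trikine and 64.6% (62.8 to 66.4) in the Combo library. The Combo share was 1.16 times the Trikine share (1.11 to 1.22), and the Trikine share was 1.03 times the mono-IL-10 share (0.98 to 1.09), an interval that includes no difference. As a share of all kept cells, members were 5.46%, 4.97% and 6.67%, and the order of the mono-IL-10 and Trikine libraries on this measure changed with the gates. As a share of all CD8 T cells, members were 26.8%, 25.7% and 40.8% in the same order. Cycling cells, with 3 or more UMIs of Mki67 and Top2a, were 17.2% of CD8 T cells with mono-IL-10, 36.9% with IL-10/2-Trikine and 17.4% in the Combo library, so the Trikine library had the largest share outside the resting gate. Cells with a Tcf7 transcript were 36.3%, 22.6% and 21.4% of CD8 T cells. These shares were not corrected for depth, which was greatest in members of the mono-IL-10 library, and the part of depth in them was not tested.

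Because a deeper cell has more chances to show a transcript, receptors were counted again in cells randomly thinned to 1000 UMIs. The other gates, Tcf7 included, were applied to cells at full depth, and the part of depth in that step was not tested. After thinning, 24.7% of resting CD8 cells (547 of 2219) carried Lag3 or Pdcd1 with mono-IL-10, 26.7% (531 of 1991) with IL-10/2-Trikine and 37.7% (1015 of 2689) in the Combo library, and 29, 37 and 95 shallower cells were left out. The ratio of Combo to Trikine was 1.42 (1.30 to 1.54) on this measure, larger than without thinning. Macrophages, taken as a background, had median depths of 6896, 5461 and 5584 UMIs against 4112.5, 3414 and 3224.5 in resting CD8 cells. After thinning, they carried either receptor in 1.60%, 2.04% and 2.08% of cells, and B cells did in 7 of 580, 2 of 108 and 1 of 111. Whether macrophages make these transcripts themselves was not tested.

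The receptors did not move together. Lag3 was found in 17.4% of thinned resting CD8 cells with mono-IL-10, 11.9% with IL-10/2-Trikine and 19.6% with the combination, so the Trikine library was lowest. Pdcd1 was found in 9.82%, 17.8% and 24.1%, so the mono-IL-10 library was lowest and the Combo library highest. The share with Lag3 in the Trikine library was 0.68 times that in the mono-IL-10 library (0.59 to 0.79), while the share with Pdcd1 was 1.81 times as large (1.55 to 2.12). Both receptors were found in 2.52%, 2.96% and 5.99% of cells, 2.02 times (1.51 to 2.71) as often in the Combo as in the Trikine library.

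**Figure D1:**
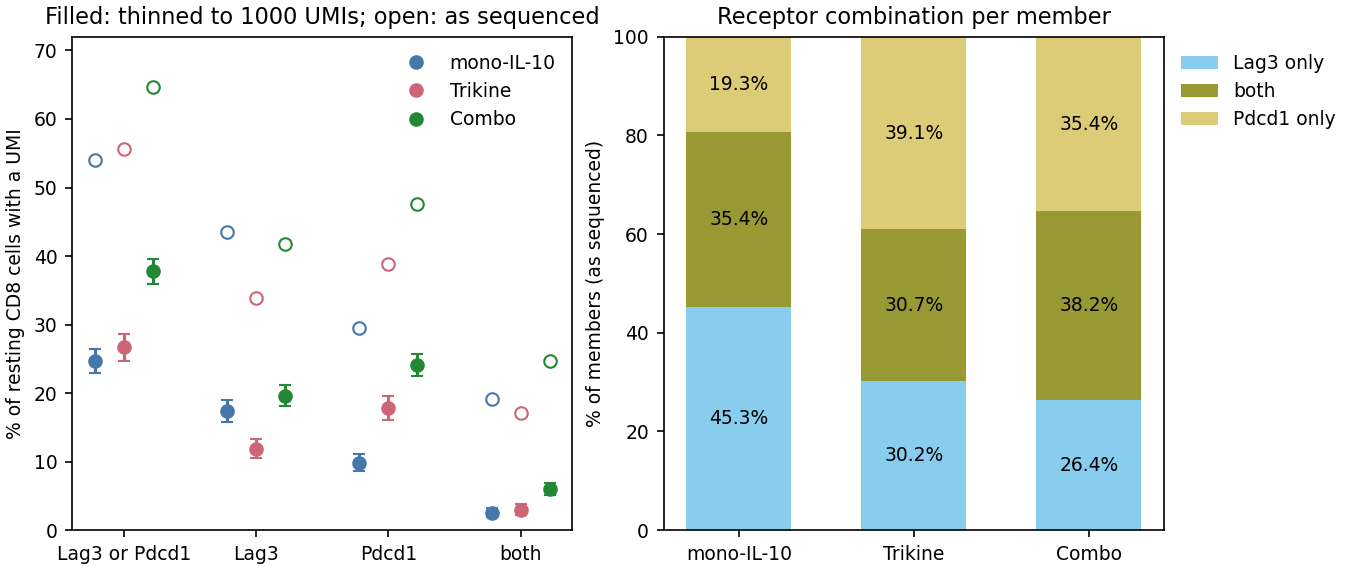
Left, percent of resting CD8 cells without Tcf7 in each library with a UMI of Lag3, Pdcd1, either or both; filled points are cells thinned to 1000 UMIs with exact 95% intervals, open points are unthinned. Right, percent of members with each receptor combination, where Lag3 alone was 45.3% in the mono-IL-10 library and 26.4% in the Combo library.

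Among members as sequenced, Lag3 alone was carried by 549 of 1213 cells (45.3%) with mono-IL-10, 341 of 1129 (30.2%) with IL-10/2-Trikine and 475 of 1799 (26.4%) in the Combo library. Pdcd1 alone was carried by 19.3%, 39.1% and 35.4%, and both by 35.4%, 30.7% and 38.2%. These shares are taken among cells chosen by the same receptors, so a higher share with Pdcd1 lowers the share with Lag3 alone, and in the thinned resting cells above Lag3 itself was not lower in the Combo than in the mono-IL-10 library. The gate is a low one: 36.1%, 42.8% and 30.2% of members held exactly 1 UMI of the receptors, and the cells just outside it, at 0, numbered 1035, 899 and 985. At the cycling gate, 798, 856 and 1385 members had no Mki67 or Top2a UMI, 131, 71 and 110 had 2, and 48, 38 and 41 cells with 3 fell just outside. Cells with both receptors had the greatest median depth in each library, 5833, 4878 and 4013 UMIs.

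Cells with both receptors also had the highest CPM of several other genes in all 3 libraries. Prf1, which encodes perforin, was at 959, 715 and 698 CPM in cells with both (mono-IL-10, Trikine and Combo) against 372, 383 and 390 CPM in cells with Pdcd1 alone and 614, 511 and 511 CPM in cells with Lag3 alone. Havcr2, which encodes the inhibitory receptor TIM-3, was at 307, 203 and 203 CPM with both and at 140, 88.05 and 106 CPM with Pdcd1 alone, and cells with Lag3 alone lay between, at 246, 135 and 159 CPM. S1pr1, a receptor with which T cells leave tissue, ran the other way, at 63.5, 120 and 71.1 CPM with both and 158, 249 and 187 CPM with Pdcd1 alone. With Lag3 alone it was at 73.0, 182 and 94.7 CPM, which in the mono-IL-10 library was close to cells with both. Other granule genes did not all follow Prf1. Gzmk was highest with Lag3 alone, at 891, 970 and 1015 CPM against 798, 913 and 886 CPM with both. Gzma was higher with both than with Lag3 alone in the mono-IL-10 library (6282 against 5642 CPM). It was lower with both in the Trikine (14956 against 16059 CPM) and Combo libraries (10562 against 13034 CPM). Gzmb was at 7973, 8984 and 8746 CPM with both and 7963, 8414 and 9159 CPM with Lag3 alone. These are levels in groups set by the receptor transcripts and are given as a description.

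Beside their neighbors without Lag3 and Pdcd1, members shared a set of genes across the 3 libraries. Of 8023 genes with enough counts, 81 (1.01%) were at least 1.5-fold higher in members in every library and 48 (0.598%) at least 1.5-fold lower; the receptor gate and depth set this contrast, so nothing is read from these counts. The genes most like the members, by the lowest of their 3 ratios, were led by Areg, which encodes the growth factor amphiregulin, at 55.4, 110 and 79.3 CPM in members and 5.78, 12.5 and 25.6 CPM in neighbors. Areg was carried by few cells, 34, 75 and 109 members, with 25.1%, 21.4% and 12.2% of its UMIs in 1 cell. It was at 87.9, 140 and 186 CPM in empty droplets and at 65.7, 112 and 134 CPM in Tcf7-bearing cells with the receptors. Tnfrsf9, the costimulatory receptor 4-1BB that follows antigen receptor engagement, was at 251, 186 and 184 CPM in members and at 53.3, 74.8 and 71.8 CPM in neighbors. Cycling CD8 cells with the receptors held more Tnfrsf9, 357, 279 and 313 CPM, and empty droplets held 125, 262 and 294 CPM. Rgs16, a regulator of G protein signaling, was at 286, 141 and 140 CPM against 79.8, 61.3 and 61.1 CPM, and Havcr2 at 255, 143 and 162 CPM against 76.9, 63.0 and 65.1 CPM. Neb, Myo10, Nrgn, Snx9, Chchd10, Tnip3, Ccl3, Sult2b1, Il10, Smim36 and Trerf1 completed the 15 genes.

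The genes least like the members included Klf3, Aff3, Slco3a1, Pde2a, Ifit3, Klrg1, Sidt1, Bach2, Itgb1, Ssbp2, Nfkbid, S1pr1, Mideas and Tespa1. Klf3, a transcription factor of quiescent lymphocytes, was at 111, 170 and 170 CPM in members and 274, 311 and 369 CPM in neighbors. S1pr1 was at 82.5, 183 and 113 CPM against 198, 288 and 221 CPM, and Bach2, a transcription factor of less differentiated T cells, at 114, 105 and 116 CPM against 207, 171 and 226 CPM. Cells that met the rule but held a Tcf7 transcript had more Bach2, at 286, 282 and 311 CPM. Their Havcr2 was at 71.1, 26.8 and 39.5 CPM, below members in every library.

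**Figure D2:**
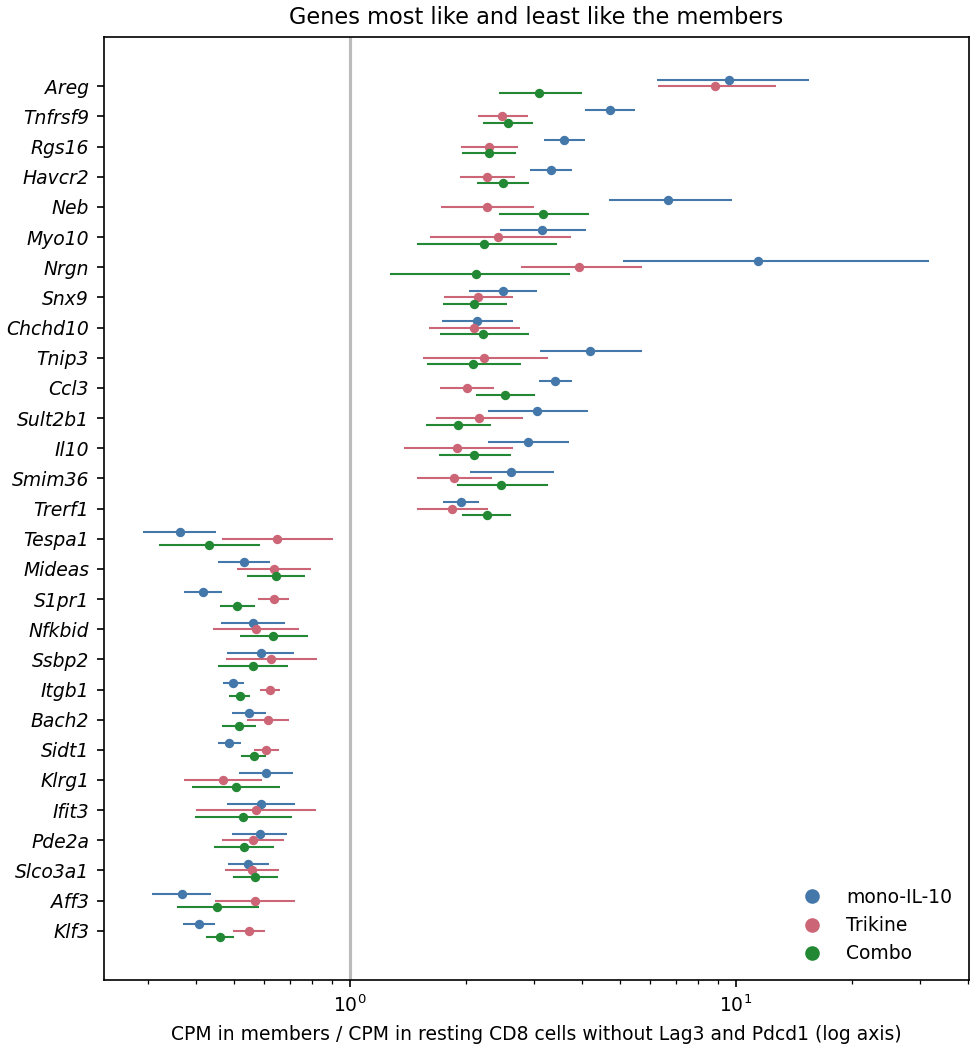
Ratio of CPM in members to CPM in resting CD8 cells without Lag3 and Pdcd1, on a log axis, for genes most like and least like the members; points are the 3 libraries with exact 95% counting intervals. Areg lies at 9.59, 8.84 and 3.09, and Klf3 lies left of 1 in all 3.

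Transcripts of cytotoxic granules were abundant in members of all 3 libraries. Gzmb, which encodes granzyme B, was at 7472, 7895 and 8339 CPM and present in 93.8%, 95.04% and 95.9% of members, and Gzmk, which encodes granzyme K, was at 850, 913 and 940 CPM. Ccl5, a chemokine of memory and effector CD8 cells, was among the highest levels at 14815, 14252 and 19562 CPM. Gzma, which encodes granzyme A, was the exception in this family: 5677 CPM with mono-IL-10, 14253 CPM with IL-10/2-Trikine and 10728 CPM with the combination. Its per-cell median was 13.9, 106 and 53.4 per 10000 UMIs, so the typical member and not only a few cells differed. After thinning, 57.5%, 84.4% and 76.7% of members held a Gzma transcript, against 2.41%, 9.12% and 11.0% of macrophages, and Gzma was at 1474, 5184 and 4433 CPM in empty droplets. Of 13 measured granule genes, Gzma alone was at least 1.5-fold higher in the Trikine library, and none was lower; over all genes tested in members, 4.08% were higher and 7.85% lower. These were 381 and 733 genes, and 506 and 531 with TMM scaling, which shifts every ratio of this comparison upward.

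IL-10/2-Trikine against mono-IL-10. The largest ratios in Trikine members belonged to Jchain, Spp1 and Slpi, genes held by 12, 52 and 6 of the 1129 Trikine members. Members of the Ifitm family, whose proteins block virus entry at membranes, also ranked among the highest. Ifitm1 was at 220 CPM with mono-IL-10, 930 CPM with IL-10/2-Trikine and 788 CPM in the Combo library, a Trikine level 4.23 times that of mono-IL-10 (3.99 to 4.49). Ifitm2 was at 88.8, 334 and 201 CPM, and Ifitm3 at 79.3, 188 and 161 CPM. Ifitm10 was at 26.3, 21.4 and 19.9 CPM and did not share the difference. Ifitm1 was held by 10.8%, 34.7% and 25.8% of members, and after thinning by 7.02%, 24.5% and 18.9%, against 3.41%, 4.93% and 3.85% of macrophages. Empty droplets held Ifitm1 at 83.5, 397 and 298 CPM, below members of every library but in the same order. Ifitm2 and Ifitm3 were at higher CPM in empty droplets than in members of every library. The part of free RNA in the levels of Ifitm1, Ifitm2 and Ifitm3 was not tested.

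Lgals3, which encodes galectin-3, was at 324, 895 and 486 CPM, and S100a6, a calcium-binding protein of activated and migrating cells, at 1682, 3227 and 1746 CPM. In both cases the Trikine library stood above the other two. Ly6c2, a surface protein of effector and memory CD8 cells, was at 410, 720 and 412 CPM, and S1pr1 at 82.5, 183 and 113 CPM. Mt1, a metal-binding metallothionein, was at 54.2, 126 and 75.9 CPM, below empty droplets in every library (93.2, 147 and 110 CPM), which had the same order. Nrgn was at 18.01, 50.3 and 12.9 CPM, with 10.9% of its Trikine UMIs in 1 cell. Jchain, Spp1, Slpi, Il1b and Cst3 also ranked among the 12 highest. Jchain, a gene of antibody-secreting cells, was at 1.21, 162 and 97.3 CPM, Spp1, which encodes osteopontin, at 1.82, 115 and 3.45 CPM, and Slpi at 1.51, 84.8 and 2.07 CPM. In the Trikine library 61.8% of Jchain UMIs, 97.5% of Slpi UMIs and 27.9% of Spp1 UMIs lay in 1 member each, and Il1b and Cst3, genes of myeloid cells, had 15.4% and 21.3% in 1 member. Without the top cell of each library, Spp1 was at 83.1 CPM in the Trikine against 1.51 CPM in the mono-IL-10 library and Slpi at 2.14 against 0.908 CPM. Of the 829 Jchain UMIs of Trikine members, 512 lay in 1 cell and 307 in another, so the Jchain ratio rested on a pair of cells.

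Genes that were lower in Trikine members were led by Penk and by chemokines and cytokines that CD8 cells release when activated. Ccl4, a chemokine that draws other immune cells, was at 2131 CPM with mono-IL-10, 548 CPM with IL-10/2-Trikine and 621 CPM with the combination, and the Trikine level was 0.26 times that of mono-IL-10 (0.25 to 0.27). Ccl3 was at 421, 140 and 125 CPM, Xcl1, which draws cross-presenting dendritic cells, at 347, 121 and 125 CPM, and Ifng, which encodes interferon-gamma, at 252, 84.0 and 71.0 CPM. The mono-IL-10 library thus stood above both Trikine-treated libraries, which lay close together. Xcl1 came from few cells, 123, 50 and 133 members, with 8.08%, 16.4% and 14.7% of its UMIs in 1 cell. Ccl3 had 7.76%, 13.7% and 3.54% of its UMIs in 1 cell. Of 12 measured effector cytokines and chemokines, 8 were at least 1.5-fold lower in the Trikine library and none was higher, beside 7.85% and 4.08% of all genes, with a median log2 ratio of -0.93 (-1.59 to -0.25) against -0.10 over all 9340 genes. Only 3 of the 12 genes had a higher CPM in members than in empty droplets of both libraries, and over those 3 the median was -0.06. This filter also takes out genes for being low in Trikine members, so nothing is read from that median. Ccl4, Ccl3, Xcl1 and Ifng were above empty droplets in the mono-IL-10 library and below them in the Trikine library. After thinning, Ccl4 was found in 43.0%, 21.1% and 25.01% of members against 4.66%, 1.85% and 1.80% of B cells, and in 51.1%, 49.97% and 50.9% of macrophages, which make it themselves. Ifng was found in 16.1%, 7.02% and 5.44% of members against 0.119%, 0.214% and 0.315% of macrophages.

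Penk, which encodes the opioid precursor proenkephalin, was at 59.6, 3.12 and 42.7 CPM. It came from few cells, 62, 11 and 65 members, and 24.1%, 25% and 34.6% of its UMIs lay in 1 cell. Empty droplets held more Penk than members did, 147, 66.7 and 112 CPM, and were also lowest in the Trikine library. Trerf1 at 226, 76.4 and 168 CPM, Chn2 at 171, 58.5 and 122 CPM and Setbp1 at 937, 438 and 805 CPM were spread more evenly, with at most 2.81% of UMIs in 1 cell, and were lowest in the Trikine library. Myo10 was at 60.4, 25.1 and 21.8 CPM in members and 100.4, 40.5 and 86.8 CPM in empty droplets. Gbp6 was at 64.2, 27.3 and 77.0 CPM and BC018473 at 80.7, 35.9 and 65.6 CPM. Prdm1, which encodes Blimp-1, a factor of terminal effector differentiation, was at 75.2, 35.1 and 43.1 CPM. Empty droplets held Prdm1 at 62.6, 42.5 and 52.5 CPM, the same order, and above members in the Trikine and Combo libraries. They held Trerf1 at 170, 94.4 and 130 CPM, also in the order of members. Chn2 and Setbp1 went the other way, with empty droplets lowest in the mono-IL-10 library. The part of free RNA in these genes was not tested.

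Inhibitory receptors outside the rule were lower or little different with IL-10/2-Trikine. Of 13 measured, 6 were at least 1.5-fold lower (Cd101, Btla, Klrg1, Havcr2, Tigit and Cd160) and none was higher, with a median log2 ratio of -0.41 (-0.86 to 0.06); of all genes tested 7.85% were lower and 4.08% higher, with a median of -0.10. Havcr2 was at 255, 143 and 162 CPM, Cd160 at 164, 99.4 and 110 CPM and Tigit at 46.3, 26.5 and 48.4 CPM. Ctla4, the most abundant of them, was at 760, 681 and 816 CPM and differed by less than 1.5-fold. Of 24 transcription factors of exhaustion and memory, 8 were lower (Tox2, Irf4, Prdm1, Eomes, Rbpj, Zeb2, Irf8 and Id2) and 2 were higher (Id3 and Lef1), with a median of -0.39, beside the same shares over all genes. Cd160 and Lef1 fell short of 1.5-fold under at least 1 other setting, with log2 ratios of -0.54 and 0.52. Eomes was at 87.2, 43.9 and 47.4 CPM, Id2 at 1509, 906 and 1018 CPM, and Tox at 372, 288 and 384 CPM, within 1.5-fold. Tox2 was at 17.6, 2.92 and 15.3 CPM. Lef1, a partner of TCF1 in memory cells, was at 144, 220 and 133 CPM.

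**Figure D3:**
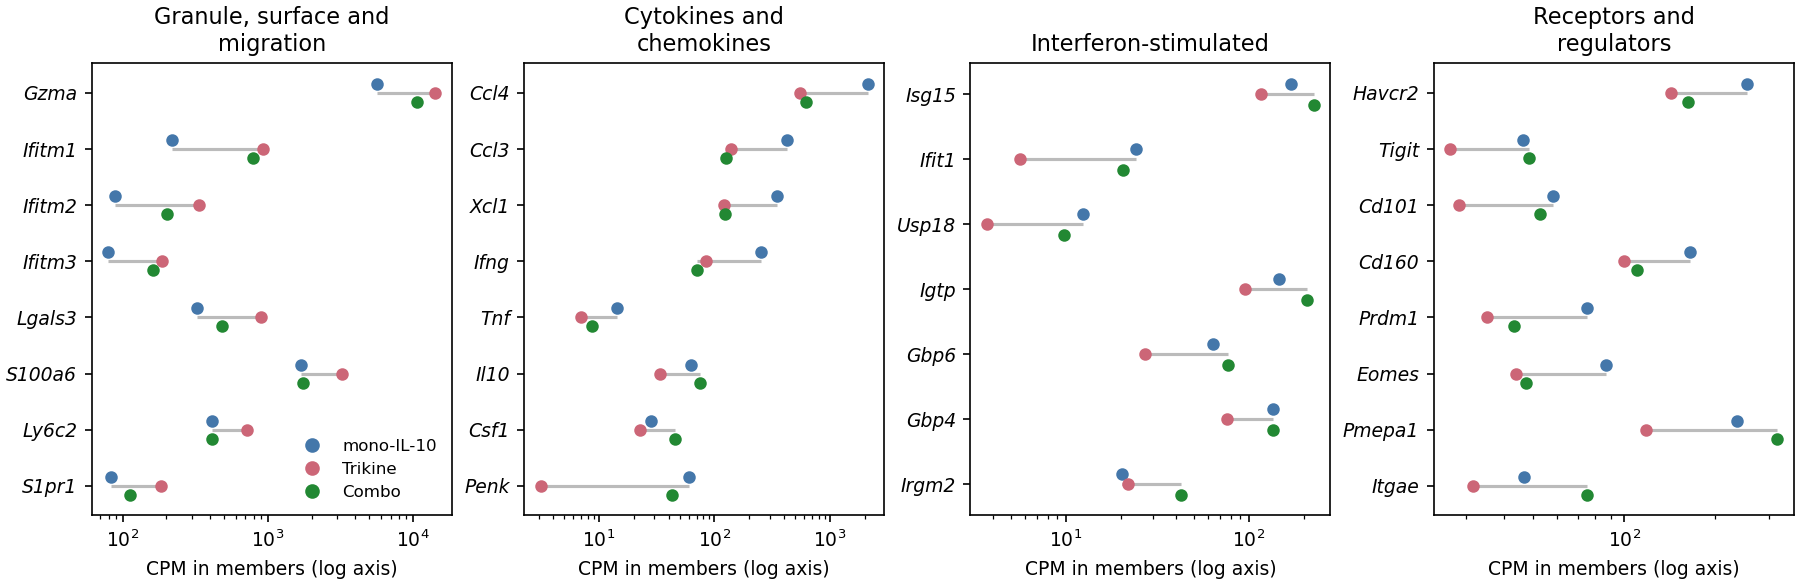
Level of named genes in members of each library, in CPM on a log axis, with one row per gene and one point per library; the gray line spans the 3 levels. Ccl4, Ccl3, Xcl1 and Ifng have the mono-IL-10 point far to the right, while the interferon-stimulated genes other than Irgm2 have the Trikine point at the left.

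Receptor chains for the treating cytokines were detected in members of all libraries. Il2rb was at 269, 251 and 307 CPM, Il2rg at 365, 351 and 382 CPM and Il10rb at 61.1, 67.5 and 70.2 CPM, each within 1.5-fold. Il2ra, the high-affinity IL-2 receptor chain, was at 51.9, 67.5 and 58.2 CPM. Il10ra, the ligand-binding chain for IL-10, was at 82.3, 44.3 and 48.6 CPM. Of 17 chains, 1 was at least 1.5-fold lower in the Trikine library (Il10ra) and 1 higher (Il6ra), counts near the 7.85% and 4.08% of all genes, so nothing is read from them about the chains. The direction of Il6ra turned when members were thinned to 1000 UMIs. Among feedback genes of these pathways, Cish was at 45.1, 41.1 and 42.4 CPM and Socs3 at 82.5, 87.5 and 81.0 CPM, each within 1.5-fold, while Socs2 was at 4.09, 19.7 and 13.3 CPM. Over 39 measured genes of the IL-2/STAT5 response, 4 were higher and 6 lower, beside 4.08% and 7.85% of all genes, with a median log2 ratio of -0.07 (-0.23 to 0.12) beside -0.10 for all genes. Over 13 measured genes of the STAT3 response, which IL-10 acts through, none was higher and 3 were lower (Prdm1, Il6st and Stat3), with a median of -0.10 (-0.67 to -0.05), equal to the median of all genes. Il6st and Stat3 fell short of 1.5-fold under at least 1 other setting, with log2 ratios of -0.334 and -0.576.

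Combination against IL-10/2-Trikine. This comparison shares the Trikine library with the first, so a gene that was low or high in that library moves in opposite directions in both. Interferon-stimulated genes were higher in Combo members. Of 19 measured interferon-gamma-induced GTPases and regulators, 16 were at least 1.5-fold higher and none lower, against 6.01% higher and 4.04% lower among all 9475 genes tested, and the median log2 ratio was 0.79 (0.61 to 1.13) against 0.04 over all genes. In the first comparison 8 of 17 were lower and none higher, beside 7.85% and 4.08% of all genes, with a median of -0.53 (-0.70 to -0.23). Gbp6, a guanylate-binding protein that attacks vacuoles of pathogens, was at 64.2, 27.3 and 77.0 CPM in the mono-IL-10, Trikine and Combo libraries. Igtp was at 147, 95.1 and 209 CPM, Gbp4 at 137, 76.6 and 137 CPM, Irgm1 at 56.9, 39.4 and 68.3 CPM and Nlrc5, the activator of MHC class I genes, at 124, 76.6 and 125 CPM. For Gbp4 and Nlrc5 the Combo level was close to that of mono-IL-10, while for Igtp it was above both other libraries. Empty droplets held Gbp6 at 47.8, 26.8 and 55.7 CPM and Igtp at 110, 82.9 and 165 CPM, the same order as members. For Gbp6, members and empty droplets were close in the Trikine library. The part of free RNA in the interferon-stimulated genes was not tested.

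All 37 measured type I interferon-stimulated genes had a log2 ratio above 0 in Combo over Trikine, 13 of them at least 1.5-fold, with a median of 0.50 (0.37 to 0.59), where 5165 of all 9475 genes were above 0 and 6.01% at least 1.5-fold higher. In Trikine over mono-IL-10, 14 of 36 were at least 1.5-fold lower and none higher, beside 7.85% and 4.08% of all genes, with a median of -0.45 (-0.61 to -0.37) beside -0.10 over all genes. Isg15 was at 172, 117 and 228 CPM, Ifit1 at 24.2, 5.65 and 20.5 CPM, and Usp18 at 12.4, 3.70 and 9.81 CPM. None of 14 genes of MHC class I presentation reached 1.5-fold in either comparison, with a median log2 ratio of -0.23 (-0.44 to 0.02) and then 0.24 (0.04 to 0.43). The Ifitm genes, although interferon-inducible, did not follow these lists: the Combo levels of Ifitm1 and Ifitm3 were 0.85 and 0.86 times the Trikine levels, and that of Ifitm2 was 0.60 times.

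The promoters of 4 of these GTPases share one arrangement of interferon motifs, shown because the transcripts of all 4 were higher in the Combo than in the Trikine library. A match to TTCNNNGAA (a gamma-activated site, GAS) lies 2 bases before a match to GAAA, any 2 bases and GAAA (an interferon-stimulated response element, ISRE), both in capitals, in RefSeq promoter windows of GRCm38.p6, each shown 5′ to 3′ on the strand of its gene and ending before its start. Their places are chr11:58199503-58199539 (Igtp, plus strand), chr11:58214894-58214930 (Irgm2, plus strand), chr11:48992306-48992342 (Tgtp1, minus strand) and chr11:49064265-49064301 (Tgtp2, minus strand).
Igtp: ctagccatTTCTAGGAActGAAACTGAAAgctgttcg
Irgm2: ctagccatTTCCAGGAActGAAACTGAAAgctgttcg
Tgtp1: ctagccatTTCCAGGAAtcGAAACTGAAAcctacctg
Tgtp2: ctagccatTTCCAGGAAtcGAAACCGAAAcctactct

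Irgm2 was at 20.3, 22.03 and 42.8 CPM, Tgtp2 at 23.8, 13.8 and 23.4 CPM, and Tgtp1 at 5.45, 2.14 and 9.40 CPM, so all 4 rose by at least 1.5-fold in the Combo over the Trikine library. In the Trikine over the mono-IL-10 library Igtp and Tgtp2 were lower, Irgm2 was within 1.5-fold and Tgtp1 had too few counts to be tested. Igtp fell short of 1.5-fold there under at least 1 other setting, with a log2 ratio of -0.546. Tgtp1 and Tgtp2 are near-identical copies, so reads may be split between them. On either strand, GAS matches were in 7 of the 12 promoters of this list that had a window, against 8.37% of all 27025 windows of 300 bases, and ISRE matches in 10 of 12, against 3.52%. A GAS before an ISRE within 30 bases was found in 0.0962% of all windows. Among type I interferon-stimulated genes, 4 of 32 windows held a GAS and 19 of 32 an ISRE match. Bst2 of that list also held a GAS 3 bases before an ISRE. It was not among the genes of its list that were at least 1.5-fold higher in the Combo library. A match is a description of these letters and not a measured binding site.

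Other genes that were higher in Combo members included Itgae and Pmepa1. Itgae, which encodes the integrin CD103 of tissue-resident T cells, was at 46.5, 31.6 and 75.5 CPM, and Pmepa1, a target of TGF-β signaling, at 236, 118 and 321 CPM. Il10 was at 63.0, 33.5 and 74.4 CPM in members and at 38.1, 33.7 and 38.6 CPM in empty droplets. Members and empty droplets were thus close in the Trikine library, and the part of free RNA in Il10 was not tested. Maf, a transcription factor that drives Il10, was at 30.3, 36.8 and 76.7 CPM, below empty droplets in every library (69.5, 85.1 and 115 CPM), which had the same order. Serpina3g was at 78.1, 47.2 and 110 CPM, also below empty droplets in every library (87.4, 61.2 and 119 CPM). Marchf3 was at 66.3, 40.6 and 89.4 CPM, Tmem140 at 50.8, 44.5 and 93.1 CPM, Trerf1 at 226, 76.4 and 168 CPM, and Chn2 at 171, 58.5 and 122 CPM. Gzmc ranked highest at 8.32, 5.85 and 56.5 CPM, but 62.1% of its Combo UMIs lay in 1 member. Of 13 inhibitory receptors outside the rule, Cd101 and Tigit were at least 1.5-fold higher and none was lower, beside 6.01% and 4.04% of all genes, with a median log2 ratio of 0.18 (-0.12 to 0.28) beside 0.04 over all genes. Of 24 transcription factors, 5 were higher (Tox2, Maf, Ikzf2, Rbpj and Irf4) and 3 lower (Myb, Lef1 and Id3), with a median of 0.19, beside the same shares. Cd101, Ikzf2, Irf4 and Id3 fell short of 1.5-fold under at least 1 other setting, with log2 ratios down to 0.53, 0.54, 0.56 and -0.42.

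The chemokines that were low in the Trikine library were also low in the Combo library. Ccl4 was 1.13 times the Trikine level (1.08 to 1.19), Xcl1 1.03 times (0.93 to 1.14), Ccl3 0.89 times (0.81 to 0.99) and Ifng 0.85 times (0.74 to 0.96), each within 1.5-fold. Of the 12 effector cytokines and chemokines, 4 were at least 1.5-fold higher (Il10, Csf1, Cxcl10 and Ccl1), beside 6.01% of all genes. The log2 ratio of Cxcl10 fell to 0.19 among members with at least 2 UMIs of the receptors, and that of Ccl1 was -0.016 with cells weighted equally, so neither call held under every setting. Csf1 was at 28.0, 22.4 and 45.2 CPM and Cxcl10 at 15.3, 12.9 and 25.8 CPM.

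Genes that were lower in Combo members included Ccr2, a chemokine receptor of inflammatory migration, at 187, 221 and 102 CPM, and S100a6. Fabp5 was at 61.4, 102 and 53.1 CPM, and at 157, 337 and 301 CPM in empty droplets. Cd74, H2-Aa, H2-Ab1 and H2-Eb1, genes of MHC class II, ranked among the 12 lowest with 228, 158, 93.1 and 133 CPM in the Combo library and 480, 322, 182 and 252 CPM in the Trikine library. Each was at least 3 times as high in empty droplets as in members of every library, and Cd74 was held by 18.2% of Trikine and 24.6% of Combo members, the opposite order to its CPM. With no UMI of the 5 myeloid genes allowed, the H2-Aa difference turned to a log2 ratio of 0.04 and that of Cd74 shrank to -0.05. Slpi, Spp1, Nrgn, Cst3 and Il1b completed the lowest 12, and Slpi turned to a log2 ratio of 0.25 among members with at least 2 UMIs of the receptors.

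Metabolic and cell cycle genes had smaller ratios. The median log2 ratios of all genes, to set beside each list here, were -0.10 in Trikine over mono-IL-10 and 0.04 in Combo over Trikine. Over 26 genes of oxidative phosphorylation, none reached 1.5-fold. In Trikine over mono-IL-10, 23 were above 0, beside 3603 of all 9340 genes, with a median of 0.15 (0.10 to 0.21). In Combo over Trikine, 24 were at or below 0, where 5165 of all 9475 genes were above 0, with a median of -0.30 (-0.34 to -0.22). Glycolysis genes had medians of -0.05 (-0.24 to 0.04) and -0.28 (-0.40 to -0.02). Of 16 glycolysis genes, Hk2 and Tpi1 were at least 1.5-fold lower in the Combo library, beside 4.04% of all genes, but the log2 ratio of Hk2 shrank to -0.08 after thinning and that of Tpi1 to -0.50 among members with at least 2 UMIs of the receptors. S phase genes, which the resting gate did not name, had a median log2 ratio of 0.31 (0.11 to 0.52) in Trikine over mono-IL-10 and of -0.33 (-0.53 to -0.14) in Combo over Trikine. In members with no Mki67 or Top2a UMI the medians were 0.18 and -0.14, and in thinned members 0.11 and -0.04. The Trikine library also had the largest share of cycling CD8 cells, and the part of that in this result was not tested. The remaining lists are shown in the plot of list medians.

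**Figure D4:**
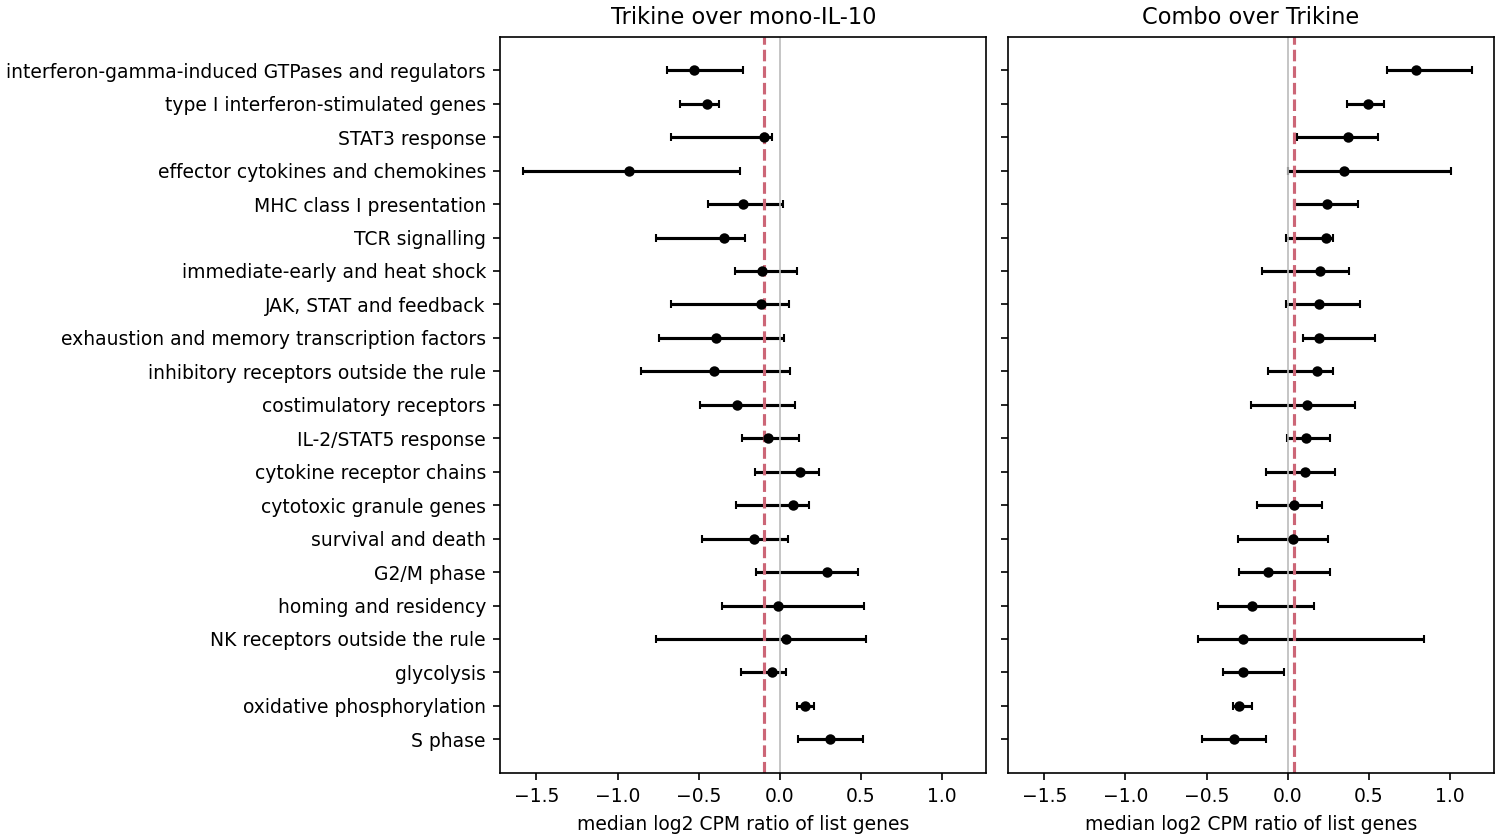
Median log2 ratio of CPM in members over the genes of each list with at least 6 measured genes, for both comparisons, with 95% order-statistic intervals; the dashed line is the median of all genes tested and the gray line is 0. The interferon lists lie left of the dashed line in Trikine over mono-IL-10 and right of it in Combo over Trikine.

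Many of these differences had similar values in the neighboring CD8 cells, and none is called particular to members. In resting cells without Lag3 and Pdcd1, Ifitm1 was 4.24 times as high in the Trikine as in the mono-IL-10 library (3.91 to 4.60), Gzma 2.65 times (2.60 to 2.70) and Ccl4 0.25 times (0.23 to 0.27), next to 4.23, 2.51 and 0.26 times in members. The interferon-gamma list had medians of -0.51 and then 0.87 in these neighbors and of -0.60 and 0.92 in cycling cells with the receptors. For some genes the values lay apart from those of receptor-negative neighbors. Chn2 was 0.34 times as high (0.30 to 0.39) in Trikine members but 0.65 times (0.53 to 0.80) in neighbors, Setbp1 0.47 times (0.45 to 0.49) but 0.71 times (0.66 to 0.77), and Havcr2 0.56 times (0.51 to 0.61) but 0.82 times (0.68 to 0.99), with intervals that do not overlap. Bcl2, a survival gene, was 1.83 times as high in Trikine members (1.62 to 2.06) and 0.97 times in neighbors (0.86 to 1.09). In the other cells with the receptors, Setbp1 was 0.47 times as high in cycling cells and 0.62 times in Tcf7-bearing cells, Bcl2 1.47 and 1.61 times, Havcr2 0.73 and 0.38 times, and Chn2 0.49 times in both.

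The variable segment of the T cell receptor β chain was read in a part of the members, since the assay captures the far end of the transcript. Exactly 1 Trbv segment was found in 359 members of the mono-IL-10 library, 261 of the Trikine library and 380 of the Combo library. Trbv13-1 was used by 25.9% (21.4 to 30.8) of these cells with mono-IL-10, 5.75% (3.25 to 9.30) with IL-10/2-Trikine and 9.21% (6.499 to 12.6) with the combination. Trbv19 was used by 8.08%, 6.90% and 20.5% (16.6 to 24.9), and Trbv3 by 7.52%, 15.3% (11.2 to 20.3) and 6.58%. In the Trikine library Trbv16 at 13.4% (9.52 to 18.2) and Trbv29 at 12.3% (8.54 to 16.9) could not be told from Trbv3. Neighbors without the receptors used Trbv13-1 in 19.0% of 200 cells with mono-IL-10, but Trbv19 in only 8.03% of 137 cells of the Combo library and Trbv3 in 8.33% of 156 cells of the Trikine library. Treatment and the mice of each library cannot be told apart in these shares.

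**Figure D5:**
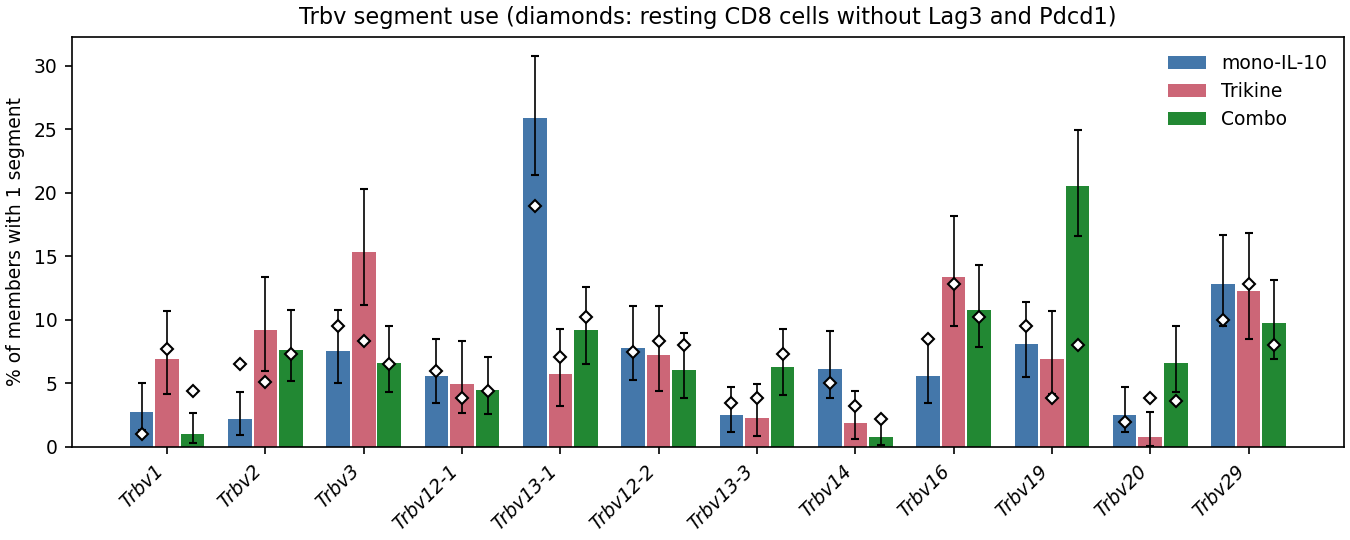
Percent of members with exactly 1 detected Trbv segment that used each segment, for segments at 5% or more in any library, with exact 95% intervals; diamonds are resting CD8 cells without Lag3 and Pdcd1. The tallest bars are Trbv13-1 in the mono-IL-10 library and Trbv19 in the Combo library.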

How the data were processed

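CD45+ cells sorted from KP1 tumors were profiled with droplet-based 3′ chemistry, with 1 library per treatment. The authors deposited raw UMI counts per gene and barcode from Cell Ranger, empty droplets included. The file headers name version 8.0.0, the methods name a later version with a newer mouse reference and introns included, and the labels name mm10, so no gene coordinates are given for counts. Libraries held 158570946, 197176873 and 175794959 UMIs over 33696 genes. With the filter the methods state (at least 200 genes, at most 20% mitochondrial UMIs), 71909 cells remained, more than the study states.

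The members and gene lists were chosen with earlier results of these data known. Counts were summed over members and scaled to CPM. Genes needed 50 UMIs in the pair, and a count of 0 was set to 3. With 1 library per group, a gene was called higher or lower at a CPM ratio of 1.5 and no test was run. Shares have Clopper-Pearson intervals, ratios of shares log intervals, ratios of CPM exact conditional binomial intervals, and list medians order-statistic intervals, all at 95%. Named genes were the 12 highest and 12 lowest ratios with a CPM of 50 or more in the higher library, leaving out mitochondrial, ribosomal, antigen receptor, hemoglobin, sex-linked, unnamed and rule genes; listed genes; and the 15 genes most and 15 least like the members. Background gates were 10 UMIs of C1qa, C1qb and C1qc (macrophages) or 3 of Cd79a and Cd79b (B cells), each with under 2 UMIs of the T cell genes of the rule, and B cells also with under 5 of its myeloid genes. Empty droplets had at most 50 UMIs. No doublet caller was run; gates and 2 alternatives stand in for it. Of the listed genes, 5 were not matched by symbol. Python 3.11.15, numpy 2.4.6, pandas 2.3.3, scipy 1.17.1, matplotlib 3.10.9 and edgeR 4.0.16 (TMM factors only) were used. Scripts were tested on simulated data. Some genes are not reported here.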

Additional observations from a re-analysis of the deposited data

How the results depend on the processing

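With 1 library per group there is no replicate to leave out, and no paired analysis was possible because the groups share no replicate. Intervals cover counting error, so depth limits most the genes under 50 UMIs in a pair, which were not compared.

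The share of members among resting CD8 cells in Trikine over mono-IL-10 (1.03) was 0.924 with at least 2 UMIs of the receptors, 1.32 with Pdcd1 alone, 0.779 with Lag3 alone, 1.18 after thinning to 2000 UMIs and 1.201 without the Tcf7 gate, a setting chosen after seeing the data. In Combo over Trikine (1.16) it was 1.42, 1.22 and 1.23 with those receptor gates, and 1.42 and 1.28 after thinning to 1000 and 2000 UMIs. The share of kept cells in Trikine over mono-IL-10 (0.911) was 0.816, 1.16 and 0.688 with those receptor gates, 1.05 with no Mki67 or Top2a UMI, 1.07 with no myeloid UMI, 0.990 without cells over 15000 UMIs and 0.993 without cells holding UMIs of other lineages. In Combo over Trikine (1.34) it was 1.64 with at least 2 receptor UMIs, 1.23 without cells over 15000 UMIs, and 1.73 and 1.61 after thinning. The Combo share was the higher one in all of these.

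The medians of type I interferon-stimulated genes in Trikine over mono-IL-10 were -0.37 with median-of-ratios and -0.36 with TMM scaling. The cytokine median was -0.056 without genes higher in empty droplets, with 3 genes left, and that of inhibitory receptors in Combo over Trikine was 0.30 with cells weighted equally. The filter on empty droplets also takes out genes for being low in Trikine members, so nothing is read from that cytokine median. Over all lists and settings, 581 medians lay within the order-statistic interval of their first value and 13 lay outside. For lists too short for an interval, the range of the list's genes was used instead. These bands can be wide, such as -1.59 to -0.25 for effector cytokines and chemokines in Trikine over mono-IL-10. The count therefore does not show that the medians stayed close to their first values.

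Genes past 1.5-fold (381 higher and 733 lower in Trikine over mono-IL-10, 569 and 383 in Combo over Trikine) numbered 834, 1533, 1219 and 813 after thinning to 1000 UMIs, 1076, 1481, 1464 and 986 with at least 10 UMIs in the pair, 90, 125, 116 and 75 without genes higher in empty droplets, and 123, 166, 162 and 87 past 2-fold. Of 192 named values past 1.5-fold, 147 remained so after thinning and 168 to 191 under the other settings. Directions turned for Il6ra (-0.89), Myc (0.31), Egr3 (0.43) and Cdc45 (-1.22) after thinning and for Klra9 (0.088) without cells over 15000 UMIs in Trikine over mono-IL-10. In Combo over Trikine they turned for Ccl1 (-0.016, cells weighted equally), Rsad2 (-0.30), Ung (1.34) and Cdc6 (1.66) after thinning, Slpi (0.25, at least 2 receptor UMIs), H2-Aa (0.044) and Cd83 (0.22) with no myeloid UMI, and Egr3 (-0.26) without cells holding UMIs of other lineages. The cause was not tested.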
